A study of Homo sapiens with 3 samples.

Results

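The placental alkaline phosphatases and pregnancy-specific glycoproteins form a set of 8 genes, ALPP, ALPG, PSG1, PSG3, PSG4, PSG5, PSG6 and PSG9, that most adult tissues outside the placenta express little and that some cancer cells switch on. They were followed through the 16 probe sets annotated to exactly 1 of these symbols, of 41097 probe sets with 1 symbol (19775 genes) on the array. They were measured in MDA-MB-231, an established human breast cancer cell line usually classed as estrogen receptor-negative. The groups were cells given tamoxifen at 1 µM, cells given estradiol at 1 µM and cells given the vehicle, 0.1% ethanol. Exposure lasted 3 h and followed a 4 h preincubation in 10% serum stripped of steroids with charcoal. The labels list 1 sample per group, so no value below has a replicate, an error or a test, and the number of samples limits every statement. Whether each vehicle value comes from 1 array or is a mean of 2 is not known. Tamoxifen, a breast cancer drug, competes with estradiol, the main natural estrogen, for the estrogen receptor. The genes were selected on their differences between tamoxifen and estradiol in these same data, ALPP and PSG9 being among the lowest, so differences between columns are given here as descriptions.

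Alkaline phosphatases split phosphate from many substrates. ALPP encodes the placental enzyme, held on the outer face of the syncytiotrophoblast by a glycosylphosphatidylinositol (GPI) anchor, and ALPG encodes its close germ cell relative. Both enzymes are known as ectopic tumour markers. The PSG genes encode secreted proteins of the carcinoembryonic antigen family, made in large amounts by the placenta, and PSG1 and PSG9 proteins are known to bind and activate latent TGF-beta. The PSG genes lie side by side on chromosome 19 and are so alike in sequence that short array probes for one can bind RNA of another.

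The upstream sequences are shown to describe how alike these genes are before their annotated starts. They do not show how alike the RNAs are that the probes bind. RefSeq (GRCh38.p14) gave the 250 bases before the annotated start for 5 of the 8 genes, ALPP, ALPG, PSG3, PSG4 and PSG5. PSG1, PSG6 and PSG9 are named only. In the alkaline phosphatase sequences capitals mark AGGTCA, a nuclear receptor half-site, and TTTAAA, an AT-rich element near the start. In the PSG sequences capitals mark the GC box core CCGCCC and the CACC box CCACCC, letters that Sp1 and Krüppel-like factors can bind.
ALPP, chr2:232378501-232378750, plus strand: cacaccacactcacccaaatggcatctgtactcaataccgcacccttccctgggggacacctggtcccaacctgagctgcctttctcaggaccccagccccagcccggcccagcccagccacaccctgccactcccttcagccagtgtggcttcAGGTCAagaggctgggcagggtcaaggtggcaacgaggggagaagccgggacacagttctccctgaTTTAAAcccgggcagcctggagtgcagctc
ALPG, chr2:232406594-232406843, plus strand: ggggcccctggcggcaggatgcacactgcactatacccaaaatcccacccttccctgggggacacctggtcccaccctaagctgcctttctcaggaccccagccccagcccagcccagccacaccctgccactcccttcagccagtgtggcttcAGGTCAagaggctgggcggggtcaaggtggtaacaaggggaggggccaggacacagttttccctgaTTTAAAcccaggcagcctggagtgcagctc
PSG3, chr19:42740482-42740731, minus strand: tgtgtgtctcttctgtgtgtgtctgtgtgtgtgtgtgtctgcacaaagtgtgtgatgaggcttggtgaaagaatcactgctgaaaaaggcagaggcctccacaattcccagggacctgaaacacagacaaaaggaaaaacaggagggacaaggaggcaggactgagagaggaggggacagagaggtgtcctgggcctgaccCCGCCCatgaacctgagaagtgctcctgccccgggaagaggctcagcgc
PSG4, chr19:43205639-43205888, minus strand: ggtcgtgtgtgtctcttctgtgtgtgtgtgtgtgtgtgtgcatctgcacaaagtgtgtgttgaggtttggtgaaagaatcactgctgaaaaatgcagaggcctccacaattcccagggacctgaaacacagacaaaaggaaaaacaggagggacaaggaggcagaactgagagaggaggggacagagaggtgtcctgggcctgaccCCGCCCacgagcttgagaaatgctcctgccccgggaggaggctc
PSG5, chr19:43186537-43186786, minus strand: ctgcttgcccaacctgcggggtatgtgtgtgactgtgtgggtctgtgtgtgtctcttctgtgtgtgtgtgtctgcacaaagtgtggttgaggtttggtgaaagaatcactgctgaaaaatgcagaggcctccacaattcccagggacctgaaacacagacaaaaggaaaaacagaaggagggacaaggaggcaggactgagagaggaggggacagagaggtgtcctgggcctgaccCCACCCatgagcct

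ALPP and ALPG were identical at 216 of 256 aligned columns (84.4%), while ALPP and the intestinal gene ALPI, the next gene along chromosome 2, were identical at 59.8%. Both ALPP and ALPG held 1 AGGTCA beginning 96 bases before the start and 1 TTTAAA beginning 30 bases before it. Searched on both strands of 35114 windows of the same length, AGGTCA was present in 12.1% and TTTAAA in 11.3%. PSG3 and PSG4 were identical at 93.2% of 250 aligned columns and PSG4 and PSG5 at 85.4% of 247. At the marked place PSG3 and PSG4 read CCGCCC, which 42.6% of all windows hold, and PSG5 read CCACCC, which 31.3% hold. None of the 5 windows held the AP-1 letters TGANTCA (6.57% of windows) or the full palindromic estrogen response element (0.0399% of windows). Outside the capitals ALPG also held 1 CCGCCC and 2 CCACCC. These matches describe the letters in these windows and nothing about binding.

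The values are log2 numbers centred, probe set by probe set, on a baseline that the sources used here do not give. A value of 0 therefore means equal to that baseline and not absence of RNA, and levels of different probe sets cannot be ranked. Base 2 and the direction, higher meaning more RNA, are assumed. Probe sets were called above a brightness floor when the binary steps of their values placed them at an uncentred level of at least 4 (log2). That call follows the dimmest of the 3 columns and the baseline, so a probe set bright in 1 column alone may lie below it. Of the member probe sets 5 lay above the floor, all in the band from 4 to 8, and the other 11 lay in the band from 2 to 4. Over all probe sets with 1 symbol, 50.6% lay above it, with 89.7% of those for ribosomal protein genes and 13.1% of those for olfactory receptor genes.

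The cell line and the placental theme were checked against markers. Here and in the lists below, a gene counted as above the floor if its brightest probe set was, as for 12063 of all 19775 named genes. All 9 genes of the MDA-MB-231 and basal breast list lay above the floor. So did 3 of 5 luminal breast genes, 1 of leukocytes (of 4 measured) and 1 of 5 of fibroblasts. The luminal genes GATA3 and KRT19 lay in the brightest band, at a level of 8 or more. Of 8 measured trophoblast-defining genes, 2 lay above it, the syncytin gene ERVW-1 and PAGE4, and each differed by less than 0.17 in size between any 2 columns. The hormone genes CGA and CSH1, the steroid enzyme gene HSD3B1, the galectin gene LGALS13 and the trophoblast factor gene GCM1 lay in the dimmest band, below a level of 2. The estrogen receptor gene ESR1, on the luminal list, was above the floor on only 1 of its 9 probe sets. That probe set stood at -0.77 with tamoxifen, -0.02 with estradiol and -0.06 with vehicle. The leukocyte gene above the floor, PTPRC, was so on 1 of 5 probe sets, which was higher with tamoxifen than with estradiol by 0.62. In a culture, fewer cells expressing a gene and less of its RNA per cell cannot be told apart.

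ALPP was low with tamoxifen and high with estradiol. Its probe set 204664_at stood at -0.36 in the tamoxifen column, at 1.71 in the estradiol column and at 1.08 in the vehicle column. Tamoxifen thus lay 4.19-fold below estradiol (log2 difference -2.07) and 2.71-fold below vehicle (-1.44), and estradiol lay 1.55-fold above vehicle (0.63). Among the 12063 named genes above the floor, ALPP had the lowest tamoxifen minus estradiol difference, which is the value that brought it into the set, and the 12th lowest difference between tamoxifen and vehicle. The probe set is of the plain type, whose probes are designed to match 1 transcript. Whether its probes can also bind RNA of the close relative ALPG was not checked.

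ALPG, next to ALPP on chromosome 2, did not share this pattern at its own probe sets. Probe set 210431_at stood at -0.13 with tamoxifen, -0.07 with estradiol and 0.10 with vehicle. Probe set 216377_x_at stood at -0.11 with tamoxifen, -0.28 with estradiol and 0.02 with vehicle. Both lay below the floor, and no pair of columns differed by more than 0.30. At this brightness a change of ALPG RNA may not be visible. For ALPI, the probe set above the floor, of the _s_at type, stood at 0.31 with tamoxifen, 0.02 with estradiol and -0.23 with vehicle, a tamoxifen minus estradiol difference of 0.29. Its plain probe set, below the floor, was at -0.18 in that comparison, so the probe sets differ in sign. No probe set of the tissue-nonspecific enzyme gene ALPL lay above the floor.

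**Figure D1:**
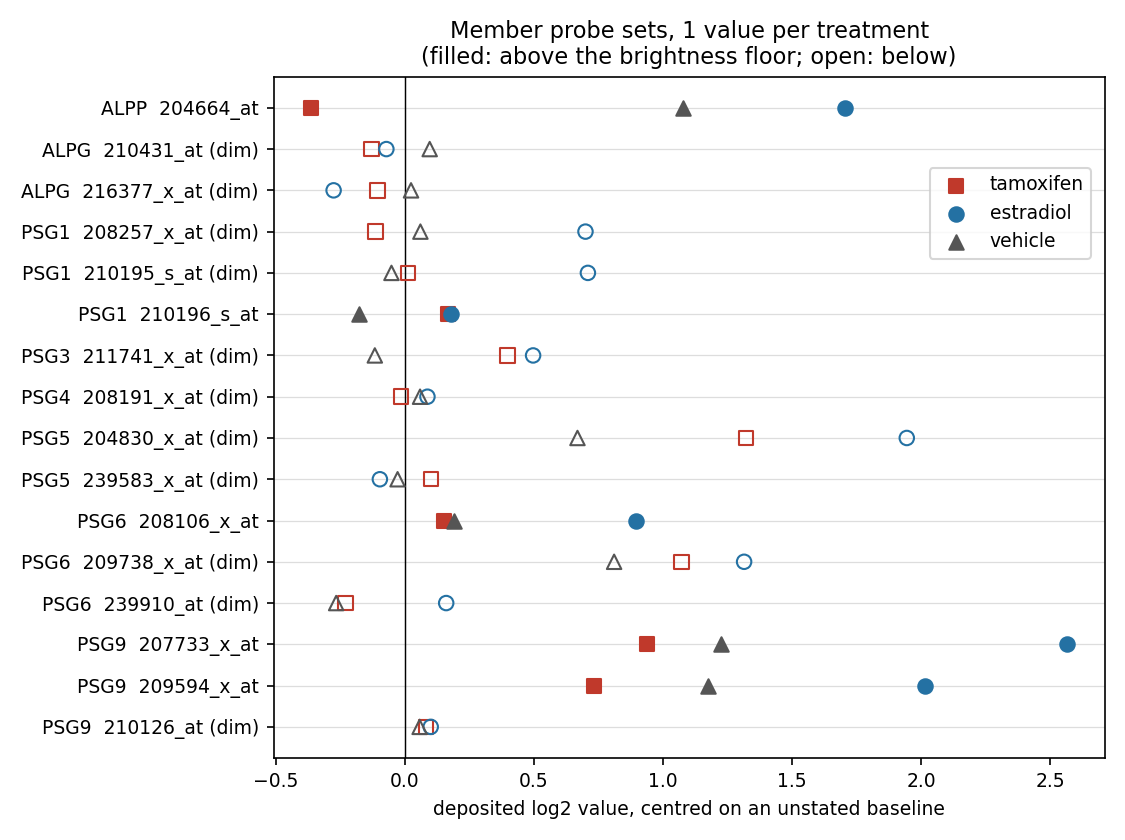
Deposited log2 values (x axis, centred on an unstated baseline) of the 16 member probe sets (rows), with a square for tamoxifen, a circle for estradiol and a triangle for vehicle, 1 sample each; filled symbols lie above the brightness floor. ALPP spans -0.36 with tamoxifen to 1.71 with estradiol, PSG9 reaches 2.57 with estradiol on 1 probe set, and both ALPG probe sets keep all 3 values within 0.30 of each other.

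PSG9 had the largest differences among the PSG genes in the comparisons that involve estradiol as deposited. Its probe set 207733_x_at stood at 0.94 with tamoxifen, 2.57 with estradiol and 1.22 with vehicle. A further probe set, 209594_x_at, stood at 0.73 with tamoxifen, 2.01 with estradiol and 1.17 with vehicle. On both of these the estradiol column was the highest and the tamoxifen column the lowest. Tamoxifen lay 3.09-fold below estradiol on one (-1.63) and 2.43-fold below it on the other (-1.28), and the mean of both (-1.45) ranked 5th lowest of the 12063 genes. Estradiol exceeded vehicle on them by 1.34 and 0.84, and tamoxifen lay below vehicle by 0.28 and 0.44 in size. The gene's remaining probe set, 210126_at, the one of plain type, lay below the floor and was nearly flat at 0.08 with tamoxifen, 0.10 with estradiol and 0.06 with vehicle. The PSG9 differences thus rest on probe sets of the _x_at type, some of whose probes also match other sequences.

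PSG6 followed the same order on 1 of its 3 probe sets. Probe set 208106_x_at, above the floor, stood at 0.15 with tamoxifen, 0.90 with estradiol and 0.19 with vehicle. Tamoxifen was 1.67-fold below estradiol there (-0.74) and within 0.04 of vehicle. Below the floor, 209738_x_at stood at 1.07 with tamoxifen, 1.31 with estradiol and 0.81 with vehicle, and 239910_at at -0.23 with tamoxifen, 0.16 with estradiol and -0.27 with vehicle. On all 3 the estradiol value was the highest of the columns, by 0.24 to 0.74 over tamoxifen.

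PSG1, whose product is the most studied pregnancy-specific glycoprotein, gave different answers from different probe sets. The one above the floor, 210196_s_at, stood at 0.17 with tamoxifen, 0.18 with estradiol and -0.18 with vehicle, so that the ligands were almost equal and each about 0.35 above vehicle. Below the floor, 208257_x_at stood at -0.11 with tamoxifen, 0.70 with estradiol and 0.06 with vehicle. Likewise 210195_s_at stood at 0.01 with tamoxifen, 0.71 with estradiol and -0.05 with vehicle. These dimmer probe sets had tamoxifen below estradiol by 0.81 and 0.70 in size. Taking the median over all 3 moves the PSG1 difference between tamoxifen and estradiol to -0.69, against -0.0094 for the brightest.

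All probe sets of PSG5, PSG3 and PSG4 lay below the floor. PSG5 had the widest range of them: 204830_x_at stood at 1.32 with tamoxifen, 1.94 with estradiol and 0.67 with vehicle. Here tamoxifen was the middle value, 0.65 above vehicle and 0.62 below estradiol in size. The other PSG5 probe set, 239583_x_at, stood at 0.10 with tamoxifen, -0.10 with estradiol and -0.03 with vehicle, and was the only PSG probe set among the 16 with its highest value in the tamoxifen column. PSG3, at 211741_x_at, stood at 0.40 with tamoxifen, 0.50 with estradiol and -0.12 with vehicle, with the ligands close together and above vehicle. PSG4, at 208191_x_at, stood at -0.015 with tamoxifen, 0.088 with estradiol and 0.059 with vehicle, a spread of about 0.10.

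Over the whole set, tamoxifen was below estradiol on 14 of 16 probe sets, and on 7 of them by at least 1.5-fold, with none 1.5-fold above. Among all 41097 probe sets with 1 symbol, 3.84% were at least 1.5-fold lower and 3.60% higher. Above the floor 4 of the 5 members were at least 1.5-fold lower and none higher, where 2.70% of 20803 named probe sets were lower and 2.34% higher. Since the genes were chosen by this difference and the PSG probe sets share sequence, nothing is read from these shares. The median difference over the 16 was -0.32, against -0.0036 over all named probe sets. The extremes among the PSG probe sets were -1.63 (PSG9) and 0.20 (PSG5).

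**Figure D2:**
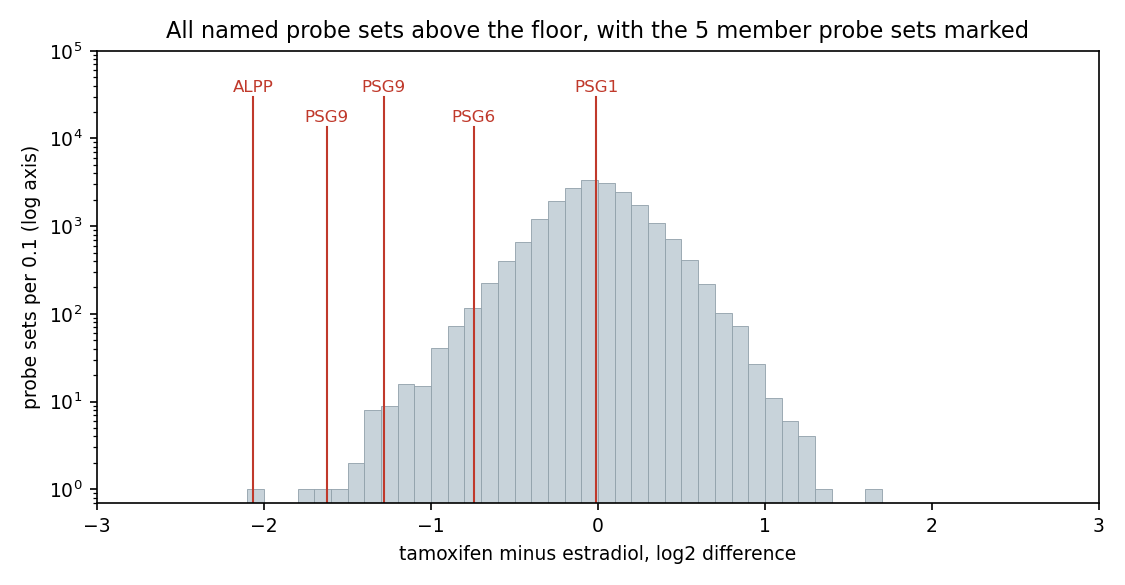
Number of named probe sets above the brightness floor (y axis, log scale) by tamoxifen minus estradiol log2 difference (x axis, steps of 0.1), with red lines at the 5 member probe sets. ALPP at -2.07 is the lowest of all, the PSG9 probe sets lie at -1.63 and -1.28, PSG6 at -0.74, and the PSG1 probe set at -0.0094 lies in the centre.

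Against vehicle, estradiol gave higher values on 13 of the 16 probe sets, 8 of them by at least 1.5-fold and none 1.5-fold lower, where 5.93% and 4.26% of all named probe sets passed. Above the floor 4 of 5 passed upward, PSG9 on both probe sets, PSG6 and ALPP, where 7.01% of named probe sets passed, and none passed downward, where 4.61% did. Tamoxifen against vehicle split the set, with 8 probe sets higher and 8 lower. Above the floor only ALPP passed 1.5-fold downward, 1 of 5 where 5.95% of named probe sets passed, and none passed upward, where 8.20% did. Below the floor PSG5 204830_x_at passed upward, so that over all 16 there was 1 call in each direction, where 6.18% of all named probe sets passed upward and 4.85% downward. These comparisons share the vehicle array and each shares an array with the comparison of the ligands.

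Over all probe sets the SD was 0.46 with tamoxifen, 0.47 with estradiol and 0.20 with vehicle, and the vehicle values came in finer binary steps. Every difference from vehicle depends on whether that column is on the scale of the others. Doubling its values brings its spread near that of the others, and this alternative ends or turns several calls against vehicle. With the vehicle doubled, ALPP was lower with estradiol than with vehicle (-0.45), and the PSG9 gene value was at -0.11, against 0.63 and 1.09 as deposited. No member above the floor then passed 1.5-fold with estradiol (4.95% of named probe sets passed upward and 3.44% downward). With tamoxifen ALPP was then at -2.52 and the PSG9 probe sets at -1.51 and -1.62, so that 3 of 5 passed downward, where 5.18% of named probe sets did, and none upward, where 8.45% did. In that setting 8 of the 16 probe sets were higher with estradiol than with vehicle and 8 lower. PSG1 210195_s_at (0.81), PSG3 (0.73), PSG6 239910_at (0.69) and PSG5 204830_x_at (0.61), all below the floor, were at least 1.5-fold higher. None of the 16 was 1.5-fold lower, and the share over all named probe sets without the floor was not computed. Above the floor PSG1 (0.53), PSG6 (0.51) and PSG9 207733_x_at (0.12) were higher, short of 1.5-fold. Which of the settings is nearer the truth was not tested, and the comparison of tamoxifen with estradiol does not involve it.

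**Figure D3:**
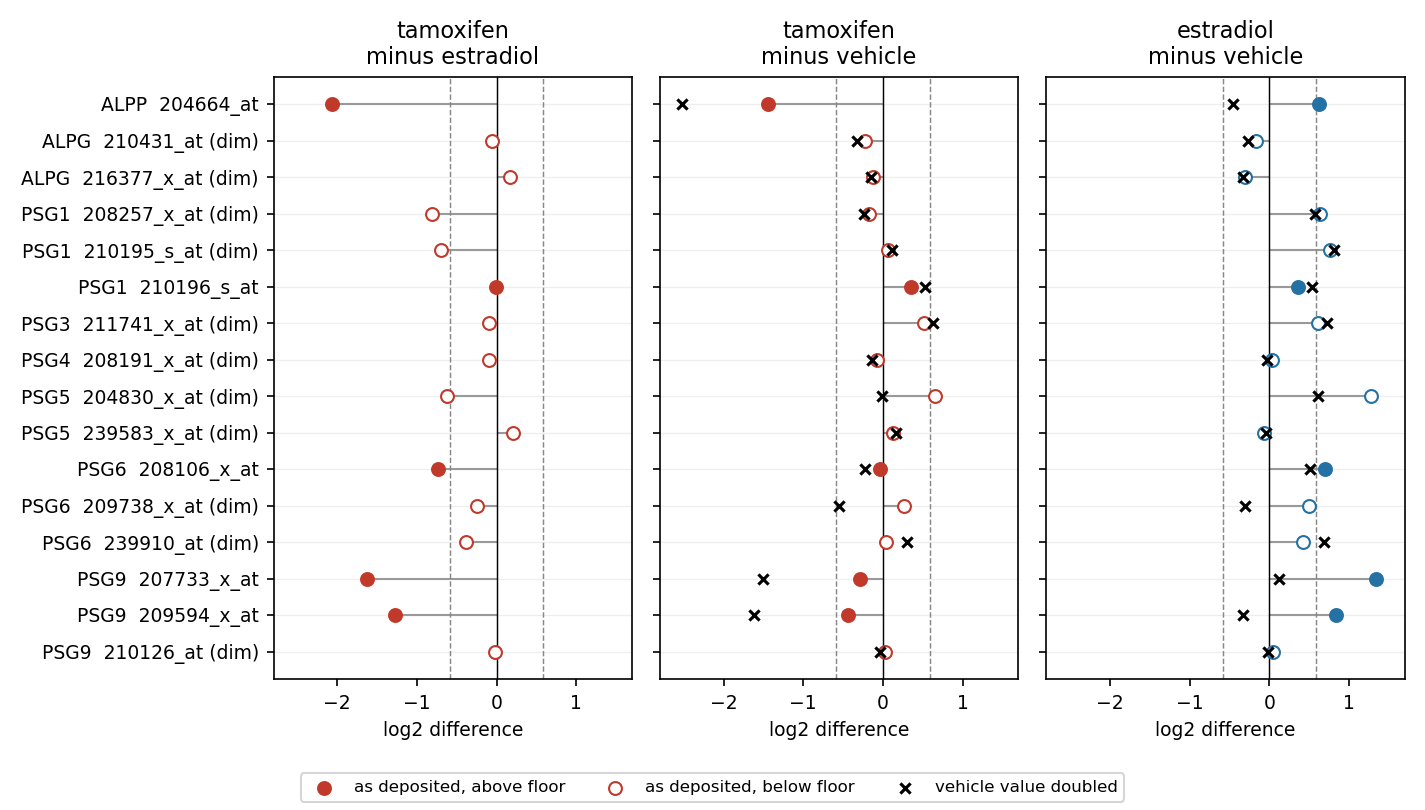
Log2 differences (x axis) of the 16 member probe sets (rows) for tamoxifen minus estradiol, tamoxifen minus vehicle and estradiol minus vehicle; circles are the deposited values (filled above the brightness floor), crosses the values with the vehicle doubled, and dashed lines 1.5-fold. The cross of ALPP lies at -0.45 in the estradiol panel, where its circle is at 0.63, and those of PSG9 in the tamoxifen panel lie at -1.51 and -1.62.

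RNA added as a control also differed between arrays. The 27 poly-A spike probe sets, for bacterial RNAs added before labelling, had a median tamoxifen minus estradiol difference of -0.16 and were lower with tamoxifen on 22. Against vehicle their medians were 0.84 with tamoxifen and 0.99 with estradiol (0.36 and 0.44 with the vehicle doubled). As deposited, among member probe sets above the floor only PSG9 207733_x_at (1.34) had an estradiol minus vehicle difference above that spike median. Those of ALPP, PSG1, PSG6 and PSG9 209594_x_at (0.84) lay below it. The 18 hybridisation spike probe sets had medians of -0.12 for tamoxifen minus estradiol, 0.10 for tamoxifen minus vehicle and 0.18 for estradiol minus vehicle. The part of these shifts in the member differences was not tested.

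Of the 11 PSG genes ordered along chromosome 19, PSG9 is the last and PSG3 the first. PSG9 had the lowest tamoxifen minus estradiol gene value (-1.45), while its neighbour PSG4 was at -0.10 and PSG3 at -0.10. Among PSG genes outside the set, each with 1 probe set below the floor, PSG7 was at -0.64, PSG11 at -0.55 and PSG2 at 0.55. PSG7 stood at 0.01 with tamoxifen, 0.66 with estradiol and 0.17 with vehicle, the order of columns seen for PSG6, whereas PSG2 had 0.34 with tamoxifen, -0.20 with estradiol and 0.26 with vehicle. A further 4 probe sets annotated to a member together with another gene were left out. Of the 13 PSG member probe sets 9 are of the _x_at type, 2 of the _s_at type, whose probes are shared by related transcripts, and 2 plain, and both plain ones lay below the floor.

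**Figure D4:**
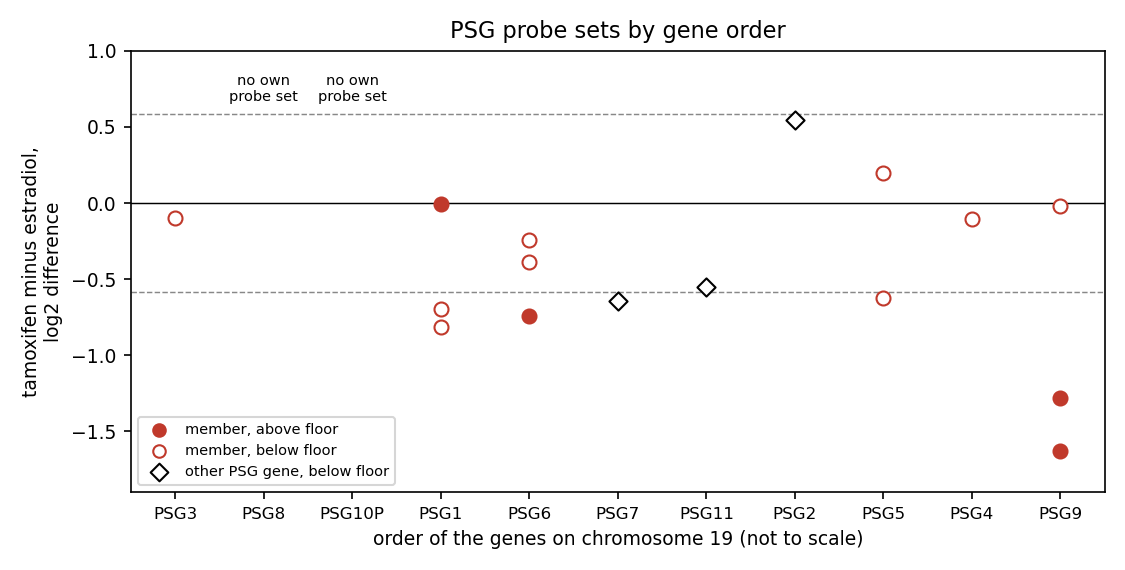
Tamoxifen minus estradiol log2 difference (y axis) of every PSG probe set with 1 symbol, placed by the order of the genes on chromosome 19 (x axis, not to scale); red circles are members (filled above the brightness floor), black diamonds other PSG genes, and dashed lines 1.5-fold. The PSG9 probe sets at -1.63 and -1.28 lie at the end of the cluster, beside PSG4 at -0.10 and a further PSG9 probe set at -0.018.

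The wider family and other placental genes were set beside the members. Of 9 CEACAM genes with a probe set, the cell adhesion relatives of the PSG genes, 4 lay above the floor, with a median tamoxifen minus estradiol difference of -0.12 and 1 past 1.5-fold downward, CEACAM4. CEACAM4 stood at -0.20 with tamoxifen, 0.49 with estradiol and -0.02 with vehicle (-0.68 between the ligands), and CEACAM1 was at -0.30 in that comparison. The others above the floor went the other way, CEACAM3 at 0.27 and CEACAM19 at 0.06. CEACAM1 was above the floor on 1 of its 5 probe sets, and its dimmer ones differed in sign, from -0.80 to 0.52. Over all 12063 genes the median was -0.02, with 2.21% at least 1.5-fold lower and 1.58% higher.

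Trophoblast hormones and enzymes had 10 of 21 genes above the floor, with a median of -0.02 between tamoxifen and estradiol. Of these PAPPA, a protease that frees insulin-like growth factors, passed upward and none passed downward. PAPPA stood at 1.19 with tamoxifen, 0.55 with estradiol and 0.09 with vehicle, the reverse order of the ligands from ALPP. KISS1, the kisspeptin gene, stood at -3.32 with tamoxifen, -3.18 with estradiol and -1.56 with vehicle, so the ligands lay close together and below vehicle by 1.76 and 1.62 in size, or by 0.20 and 0.07 with the vehicle doubled. Against vehicle 2 genes of the list passed upward with tamoxifen (PAPPA and the activin subunit gene INHBA) and none with estradiol, where 6.97% and 5.84% of genes did. Downward 1 passed with tamoxifen (KISS1) and 2 with estradiol (KISS1 and the placental growth factor gene PGF), where 4.33% and 2.65% of genes did. PGF stood at -0.53 with tamoxifen, -0.83 with estradiol and -0.22 with vehicle, and with the vehicle doubled KISS1, PGF and INHBA (0.46 with tamoxifen) no longer passed.

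Genes of trophoblast fusion, surface and secretion had 11 of 18 members above the floor and a median of -0.04 between the ligands, with none past 1.5-fold. The lowest were the imprinted gene PEG10 (-0.51), the calcium channel gene TRPV6 (-0.50) and PLAC1 (-0.38). TFPI2, a protease inhibitor gene, stood at 1.46 with tamoxifen, 1.34 with estradiol and 0.51 with vehicle. Trophoblast transcription factors had 9 of 19 genes above the floor and a median of 0.08. TFAP2C alone passed 1.5-fold between the ligands, upward, at 0.87 with tamoxifen, 0.21 with estradiol and -0.31 with vehicle.

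**Figure D5:**
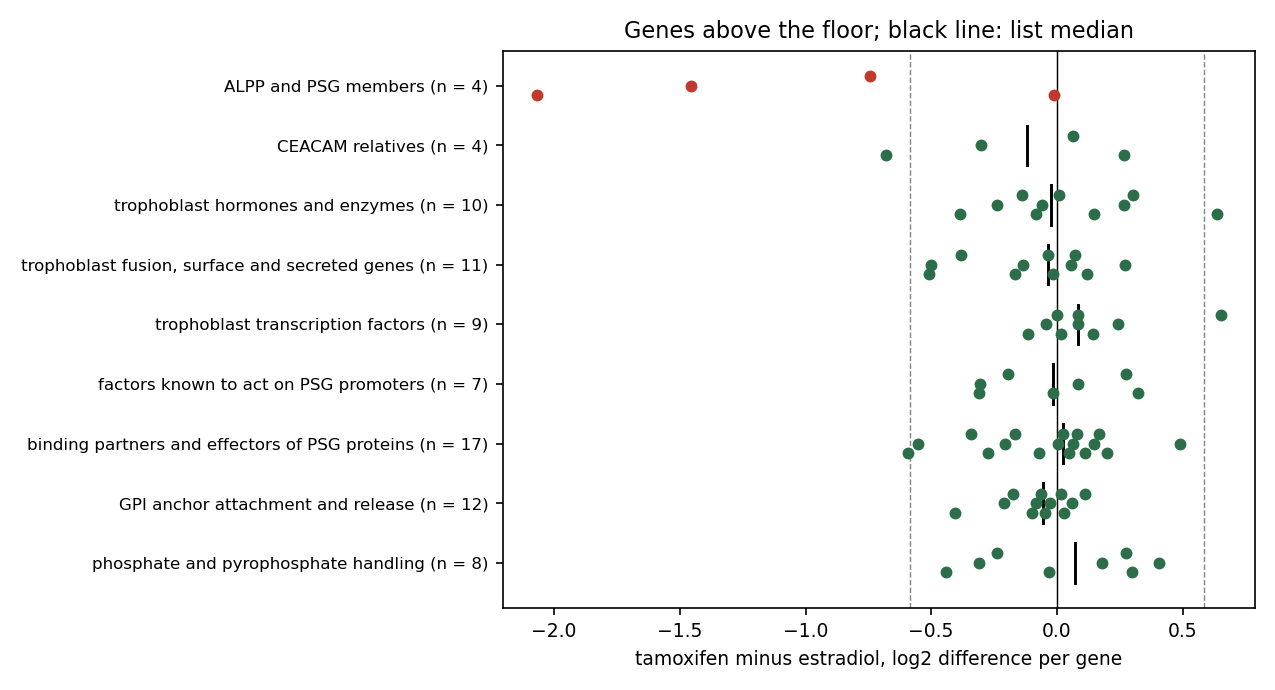
Tamoxifen minus estradiol log2 difference (x axis) of each gene above the brightness floor, for the ALPP and PSG members (red) and 8 lists of related genes (green, rows), with a black line at each list's median and dashed lines at 1.5-fold. ALPP (-2.07) and PSG9 (-1.45), selected on this same difference, lie outside the range of every list shown, so nothing is read from that gap. The medians of the lists lie between -0.12 and 0.08.

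Factors known to act on PSG promoters all lay above the floor (7 of 7), with a median of -0.014 between the ligands and none past 1.5-fold. KLF6, which was isolated through its binding to a PSG core promoter, stood at -0.44 with tamoxifen, -0.13 with estradiol and 0.05 with vehicle. KLF4 stood at 1.24 with tamoxifen, 1.16 with estradiol and 0.40 with vehicle, and the ETS factor gene GABPA at 1.05 with tamoxifen, 1.24 with estradiol and 0.45 with vehicle. Both thus passed upward against vehicle with each ligand as deposited, 2 of 7, where 6.97% of genes did with tamoxifen and 5.84% with estradiol. None of the 7 passed downward, where 4.33% and 2.65% of genes did. With the vehicle doubled neither KLF4 nor GABPA passed. SP3 was lower by 0.31 in size with estradiol than with vehicle, or by 0.13 with the vehicle doubled.

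Binding partners and effectors of PSG proteins had 17 of 18 genes above the floor and a median of 0.02 between the ligands. The syndecan gene SDC4, for a heparan sulfate proteoglycan, was the only one past 1.5-fold between them (-0.59), at -0.76 with tamoxifen, -0.17 with estradiol and -0.01 with vehicle. The latent TGF-beta binding protein gene LTBP1 stood at 0.96 with tamoxifen, 0.79 with estradiol and 0.13 with vehicle. VEGFA stood at 1.95 with tamoxifen, 2.29 with estradiol and 0.81 with vehicle. Against vehicle 3 of 17 passed upward with each ligand, where 6.97% of genes did with tamoxifen and 5.84% with estradiol. Downward 1 passed with tamoxifen and none with estradiol, where 4.33% and 2.65% did. With the vehicle doubled LTBP1 was at 0.70 with tamoxifen and 0.53 with estradiol, and VEGFA at 0.33 and 0.67. Genes that attach or release GPI anchors, by which ALPP is held, had 12 of 13 above the floor, a median of -0.06 between the ligands and none past 1.5-fold. PIGA, for the enzyme of the opening step of anchor synthesis, was 0.83 above vehicle with tamoxifen and 0.81 with estradiol, or 0.56 and 0.54 with the vehicle doubled, below 1.5-fold. Phosphate and pyrophosphate genes had 8 of 12 above the floor, a median of 0.07 and none past 1.5-fold between the ligands. Among them ENPP1, which makes pyrophosphate, was 0.82 above vehicle with tamoxifen and 0.52 with estradiol.

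Genes with values most like those of the members were sought by Euclidean distance over both differences from vehicle as deposited. These are 2 values per gene from 3 samples. With the vehicle doubled the ALPP values were -2.52 with tamoxifen and -0.45 with estradiol, and nearest genes were not sought in that setting. Nearest to ALPP (-1.44 with tamoxifen and 0.63 with estradiol) was MAP3K7CL (-1.13 and 0.19, distance 0.54), followed by COL9A2 (0.58), H2BC21 (0.66), PRKG1-AS1 (0.72) and CLIC3 (0.76). None came within 0.5 of ALPP. Nearest to the mean of the 3 PSG genes above the floor (-0.02 with tamoxifen and 0.72 with estradiol) was GUCA1A (distance 0.02), followed by RELB (0.04), FAM83H (0.05), ATF3 (0.05) and PABIR3 (0.06). The 3 genes behind that mean differed among themselves, PSG9 being at -0.36 with tamoxifen and 1.09 with estradiol, PSG6 at -0.04 and 0.70, and PSG1 at 0.35 and 0.36.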

How the data were processed

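Total RNA of 3 MDA-MB-231 samples, biotin its label per the labels' protocols, was measured on Affymetrix arrays. Per the submitters' processing notes the tool was RMA (robust multi-array average); its version is not known here. The values deposited for 54675 probe sets are taken as log2. They were found to be centred near 0 (column medians -0.02 with tamoxifen, -0.02 with estradiol and -0.04 with vehicle). Neither the baseline nor any pooling of arrays is stated.

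Differences between columns were computed with numpy 2.4.6 and pandas 2.3.3. No test was possible with 1 sample per group, so sizes were read against 1.5-fold. Brightness bands came from the binary steps of the single-precision values, the vehicle column being shifted by 1 step. On simulated data the procedure recovered 90.5% of bands and 96.9% of floor calls. The simulated vehicle column was built to need that shift, so the shift itself was not tested. By chance a dim probe set can be read as brighter. Gene values are means over the probe sets of a gene in its brightest band. Symbols came from the platform annotation supplied: 41097 probe sets had 1, 1801 several and 11777 none. Upstream sequences were aligned globally with Biopython 1.88 (match 1, mismatch -1, gap opening -2, extension -0.5), leaving out end gaps. Motif matches to palindromic letters were counted once.

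All probe sets of the members are described. Of each list, up to 4 genes above the floor with the largest difference in any comparison could be named, and 5 nearest genes per pattern. Further markers were named after their values were seen. The members and lists were chosen with earlier results of these data known. Alternatives were the doubled vehicle, no floor or a floor of 8, probe sets of plain type alone, column medians set to 0, a 2-fold rule, and means or medians over all probe sets of a gene.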

Additional observations from a re-analysis of the deposited data

How the results depend on the processing

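Between tamoxifen and estradiol 4 of 5 member probe sets above the floor passed 1.5-fold, and 7 of 16 without the floor. Between tamoxifen and vehicle 1 of 5 passed as deposited, 3 of 5 with the vehicle doubled and 2 of 16 without the floor. Between estradiol and vehicle 4 of 5 passed as deposited, 0 of 5 with the vehicle doubled and 8 of 16 without the floor. By the 2-fold rule 1 of 5 passed there. Only 1 member probe set above the floor was of plain type (ALPP), and it passed in each comparison as deposited. The shares of all named probe sets stand with these counts in the Results. None was computed for the plain type or the 2-fold rule. With the vehicle doubled the estradiol minus vehicle gene values turned to -0.45 for ALPP and -0.11 for PSG9, against 0.63 and 1.09. Of the gene values computed under the alternatives, 84 kept their side of 1.5-fold, 9 no longer passed, 5 newly passed and 2 that had passed changed sign. Changes of sign among values short of 1.5-fold count as kept. Of the 84, 36 were equal to the main value, mostly since genes with 1 probe set, or all in 1 band, cannot change with how probe sets are combined, so they say nothing about stability. With plain probe sets alone the PSG9 difference between tamoxifen and estradiol was -0.018 and that of PSG6 -0.39. Setting column medians to 0 moved differences by at most 0.03 in size, and PSG5 to 0.58 for estradiol minus vehicle, against 0.60. A floor of 8 left no member probe set and gave no value. No replicate could be left out with 1 sample per group. No paired analysis was possible because each group holds 1 sample and no test was run. The cause of these changes was not tested.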

Other observations

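Other genes that tumours switch on outside their normal tissue were represented by 11 cancer-testis genes, of which 3 lay above the brightness floor. MAGEC1 stood at 2.01 with tamoxifen, 2.60 with estradiol and 0.98 with vehicle, so that tamoxifen lay 0.59 below estradiol in size and both ligands lay above vehicle, by 1.03 and 1.62. With the vehicle doubled the last 2 differences were 0.04 and 0.63. MAGEA6 had the opposite order of the ligands, at 0.20 with tamoxifen, -0.41 with estradiol and 0.08 with vehicle. PRAME stood at -0.11 with tamoxifen, 0.10 with estradiol and 0.37 with vehicle. Of these 3 genes, 1 passed 1.5-fold upward and 1 downward between tamoxifen and estradiol, where 1.58% and 2.21% of the 12063 genes above the floor did.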
